A study of Mus musculus with 45 samples.

Results

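The genes described here are the 10 enzymes that add or remove methyl groups on lysine 36 of histone H3 (H3K36) and were named by symbol from the deposited expression table: the methyltransferases Nsd1, Nsd2, Nsd3, Ash1l and Setd2, and the demethylases Kdm2a, Kdm2b, Kdm4a, Kdm4b and Kdm4c. They are 10 of the 26214 genes of the table, and the rule that chose them used their function and no measured value, although earlier results of these data were known when it was written. All 10 averaged 1 TPM (a length-scaled share of the transcripts of a library, in which each library sums to 1e+06) or more in every comparison and so passed the filter on low values. RNA was measured in pools of mouse fully grown oocytes (FGOs) and in single late two-cell embryos. Control FGOs (3 libraries) came from H3f3b K36M-flox/+ females, and K36M FGOs (3 libraries) came from H3f3b K36M-flox/+; Gdf9-Cre females, aged 3 to 4 weeks and of a hybrid C57BL/6 / 129 strain. Control and K36M FGOs thus both carried the floxed allele, which Gdf9-Cre, driven by an oocyte promoter, switches to a histone H3.3 with methionine in place of lysine 36. Control oocyte-derived and K36M oocyte-derived embryos came from super-ovulated females, were fertilized in vitro with sperm of the JF-1 strain and were harvested at 31 to 32 h after fertilization. Per the paper, K36M females crossed with wild-type males should give both H3f3b +/+ and H3f3b K36M/+ offspring. The sample titles do not tell such embryos apart, so genotype below refers to that of the oocytes. The labels do not say from which females the pools or embryos came, so p-values measure the spread between these libraries. Of the 8 control embryos, replicate 4 was left out because the study set it aside for a technical problem, which left 7 control and 8 K36M oocyte-derived embryos.

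H3K36 methylation is laid down in steps. NSD1, NSD2, NSD3 and ASH1L make the dimethyl mark (H3K36me2), which can spread over genes and between them, and SETD2 makes the trimethyl mark (H3K36me3) over the bodies of transcribed genes, travelling with elongating RNA polymerase II. KDM2A and KDM2B bind unmethylated CpG islands through a zinc finger and remove H3K36me2, whereas KDM4A, KDM4B and KDM4C remove H3K36me3 and also methyl groups from H3K9. In growing oocytes both H3K36 marks are read by the DNA methylation machinery, and in the late two-cell embryo the stored maternal RNA is being degraded while the embryo's own genome is transcribed.

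The libraries matched their labelled stage. All 8 oocyte markers were called lower in embryos than in FGOs of either genotype, where 15.5% (controls) and 15.4% (K36M) of all genes were. Of the 8 two-cell markers, all of which had a log2 fold change above 0, 7 were called higher in controls and 6 in K36M samples, where 15% and 9.86% of all genes were. Zscan4f, Zfp352 and Usp17la were under a mean of 1 TPM in both FGO groups, as Zscan4c and Usp17lc were in K36M FGOs. Figla was so in K36M oocyte-derived embryos. In those comparisons each passed the filter through the group where it was high, so these differences are descriptions. All 8 oocyte markers had a TPM above 0 in every FGO library. Between 16707 and 18559 genes had a TPM above 0 in the FGO libraries, against 12115 to 17329 in the 7 control and 10894 to 14879 in the 8 K36M oocyte-derived embryos. H3f3b, the locus with the floxed K36M allele, was at 293 ± 24.6 TPM in control FGOs and 398 ± 20.8 TPM in K36M FGOs (SD, n = 3 each). The K36M FGOs were all above the controls for it, with a log2 fold change of 0.44 ± 0.09 (SE) that did not pass the test (limma, adjusted p = 0.281), and TPM of the whole gene does not separate its normal and K36M transcripts. Control two-cell replicate 4 had a median log2(TPM + 1) of 0.72 over the two-cell markers, against 5.31 to 7.78 in the other control embryos. In it, 5 of the 10 enzymes were below every other control embryo: Setd2 at 269 TPM, Kdm2a at 71.1, Kdm4a at 119, Kdm4b at 0.273 and Kdm4c at 25.5. The other 5 were inside the range of the rest. Of 17187 genes, 15.7% were below and 21.8% above every other control embryo in it.

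Fully grown control oocytes held the 10 transcripts at very unequal levels. TPM is scaled by gene length, so levels were set side by side between genes. The order depends on the gene lengths behind the TPM, which are not given in the sources used here. Kdm2b was the most abundant at 436 ± 41.7 TPM (SD, n = 3), followed by Setd2 at 246 ± 16.3, Nsd1 at 181 ± 5.96 and Kdm4a at 110.0 ± 7.68, and the ranges of these neighbours did not overlap. Nsd2 (45.6 ± 3.36), Kdm2a (43.7 ± 3.02) and Ash1l (42.9 ± 7.40) formed a middle tier whose neighbouring ranges overlapped. Nsd3 (15.5 ± 0.58), Kdm4b (9.88 ± 1.36) and Kdm4c (1.80 ± 0.81) were lower, each below the one before it in every library. In each library Kdm2b stood between the 98.5th and the 98.9th percentile of all genes and Kdm4c between the 47.5th and the 53.8th. The order in K36M FGOs had the same first 4 and the same last 3 places.

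In control two-cell embryos the order was Setd2 (617 ± 161 TPM, n = 7), Kdm4a (290 ± 53.8), Nsd1 (232 ± 42.3), Kdm2b (135 ± 28.6), Kdm2a (123 ± 25.2), Kdm4c (102 ± 27.2), Ash1l (66.4 ± 13.1), Nsd2 (63.4 ± 12.8), Nsd3 (28.2 ± 14.7) and Kdm4b (10.4 ± 6.32). Nsd1 and Kdm2b were the only neighbours in that order whose ranges did not overlap, although Setd2 was above Kdm4a within each of the 7 embryos. The K36M oocyte-derived embryos had the same order of means, and there only Setd2 and Kdm4a had ranges that did not overlap. Kdm2b, first in the FGOs, was thus below Setd2, Kdm4a and Nsd1 in the embryos, and Kdm4c, last in the FGOs, was above Ash1l, Nsd2, Nsd3 and Kdm4b.

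**Figure D1:**
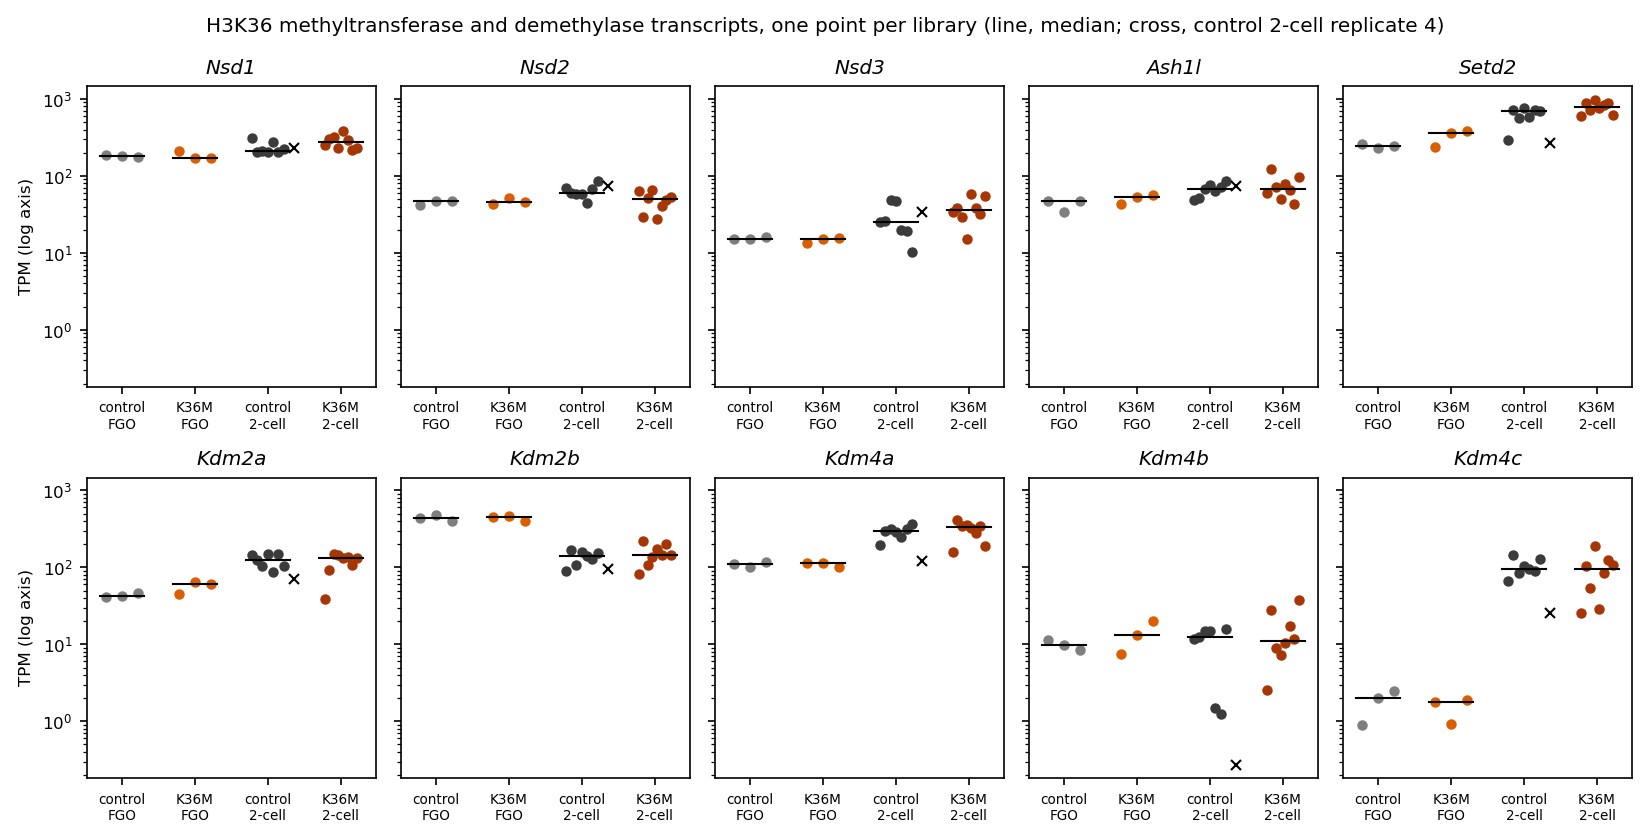
TPM (log axis) of the 10 enzymes, with 1 point per library, a line at the median of each group and a cross for control two-cell replicate 4, which was left out. Kdm4c lay at 0.899 to 2.47 TPM in the 6 FGO libraries and at 25.3 to 190 TPM in the 15 embryos, while Kdm2b lay at 395 to 479 TPM in the FGOs and at 81.8 to 217 TPM in the embryos.

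Comparing embryos with FGOs of the same genotype asked how the transcripts of these enzymes stood on either side of fertilization. Tests were made with limma on log2(TPM + 1) over every gene whose mean TPM reached 1, and a gene was called at a Benjamini-Hochberg adjusted p under 0.05. In controls, 5 of the 10 enzymes were called, 4 higher and 1 lower, where 30.5% of the 16914 genes tested were called (15% higher and 15.5% lower). Kdm4c, Kdm2a, Kdm4a and Setd2 were higher and Kdm2b was lower. In K36M samples 4 of the 10 were called, where 25.3% of 16677 genes were (9.86% higher and 15.4% lower), and they were Kdm4c, Kdm4a and Setd2, higher, and Kdm2b, lower. The median log2 fold change of the 10 was 0.63 in controls and 0.76 in K36M samples, beside 0.076 and −0.16 over all genes tested. Under a pseudocount of 0.1 and both other scalings the all-gene median changed sign in places, lying between −0.13 (pseudocount of 0.1) and 0.043 (quantile normalization) in controls and between −0.54 (pseudocount of 0.1) and 0.17 (quantile normalization) in K36M samples, while the members' median lay between 0.41 and 0.65 and between 0.60 and 0.77. Stage cannot be told apart here from the other things that differed with it. Among them were pools of oocytes against single embryos, hormone treatment, culture and the paternal JF-1 genome. Per the paper, the embryo libraries also had more amplification cycles and fewer reads. Of 8 granulosa cell markers tested in each genotype, 6 had a log2 fold change below 0 and 2 above, and 2 were called lower. Their part in the values of the enzymes was not tested. TPM gives each transcript as a part of its library, so a rise in TPM cannot be told apart from a loss of other RNA.

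The 4 enzymes called in both genotypes, Kdm4c, Kdm4a, Kdm2b and Setd2, are also the members with a promoter in the RefSeq-derived table used here (GRCm38.p6), so stretches around annotated starts are shown, each running from 250 bases before to 50 bases after a start, 5′ to 3′ on the gene's strand, with every CG dinucleotide in capitals. CG is the letter pair that the CpG-binding zinc finger of KDM2 proteins and DNA methylation act on.
Kdm4c, first annotated start, chr4:74242247-74242546, plus strand: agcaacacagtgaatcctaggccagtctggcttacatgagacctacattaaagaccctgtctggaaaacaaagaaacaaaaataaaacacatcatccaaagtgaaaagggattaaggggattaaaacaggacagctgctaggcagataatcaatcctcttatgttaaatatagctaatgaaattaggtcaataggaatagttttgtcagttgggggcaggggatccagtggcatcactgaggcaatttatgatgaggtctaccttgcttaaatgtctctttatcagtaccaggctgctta
Kdm4c, second annotated start, chr4:74251629-74251928, plus strand: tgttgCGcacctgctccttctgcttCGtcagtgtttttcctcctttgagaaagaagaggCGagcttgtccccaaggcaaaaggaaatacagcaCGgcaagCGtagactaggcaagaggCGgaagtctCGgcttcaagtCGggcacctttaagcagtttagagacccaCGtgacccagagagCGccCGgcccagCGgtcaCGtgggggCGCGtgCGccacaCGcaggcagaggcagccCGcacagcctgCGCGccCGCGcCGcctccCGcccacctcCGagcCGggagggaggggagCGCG
Kdm4a, chr4:118179994-118180293, minus strand: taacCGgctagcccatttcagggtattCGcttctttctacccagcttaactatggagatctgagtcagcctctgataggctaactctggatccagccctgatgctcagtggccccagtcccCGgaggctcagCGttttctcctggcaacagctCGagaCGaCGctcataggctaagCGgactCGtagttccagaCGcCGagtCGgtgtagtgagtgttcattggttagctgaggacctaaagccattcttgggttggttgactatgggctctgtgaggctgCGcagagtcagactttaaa
Kdm2b, start nearest the gene's 5′ end among those in the table, chr5:122989050-122989349, minus strand: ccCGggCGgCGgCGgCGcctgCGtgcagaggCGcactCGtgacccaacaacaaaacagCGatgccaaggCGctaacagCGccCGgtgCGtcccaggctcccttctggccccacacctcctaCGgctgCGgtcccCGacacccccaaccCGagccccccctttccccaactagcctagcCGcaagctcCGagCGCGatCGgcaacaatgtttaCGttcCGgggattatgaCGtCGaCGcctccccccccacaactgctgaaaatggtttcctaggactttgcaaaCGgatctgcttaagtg
Kdm2b, inner annotated start, chr5:122900318-122900617, minus strand: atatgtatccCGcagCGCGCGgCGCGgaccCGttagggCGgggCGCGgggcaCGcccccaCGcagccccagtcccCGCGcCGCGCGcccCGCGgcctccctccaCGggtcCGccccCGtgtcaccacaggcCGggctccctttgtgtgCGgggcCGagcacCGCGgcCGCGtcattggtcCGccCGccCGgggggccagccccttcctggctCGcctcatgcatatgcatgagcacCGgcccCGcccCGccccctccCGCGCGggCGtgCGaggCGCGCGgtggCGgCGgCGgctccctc
Setd2, chr9:110532347-110532646, plus strand: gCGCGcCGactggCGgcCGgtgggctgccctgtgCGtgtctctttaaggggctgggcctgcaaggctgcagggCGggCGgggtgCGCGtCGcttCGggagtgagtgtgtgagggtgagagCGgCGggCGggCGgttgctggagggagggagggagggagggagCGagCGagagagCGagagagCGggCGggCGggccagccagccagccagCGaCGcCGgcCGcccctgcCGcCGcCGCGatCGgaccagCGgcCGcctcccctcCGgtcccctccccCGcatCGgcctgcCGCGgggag
The first Kdm4c window held no CG, and the second held 28, with 2 copies of CACGTG and 1 of GGGCGG. The Kdm4a window held 13 CG and 1 CCAAT, and the Setd2 window held 38 CG and 7 GGGCGG. The Kdm2b window nearest the gene's 5′ end held 28 CG and 1 GGGCGG, and the inner one held 47 CG, 6 GGGCGG and 1 CCAAT. The table held 4 Kdm2b windows, and those not printed were chr5:122988458-122988757, with 18 CG and none of the motifs, and chr5:122900301-122900600, which overlaps the inner one and held 49 CG. Over the 32851 promoter windows of the table the median was 7 CG, and GGGCGG was found in 35.7%, CCAAT in 37.4%, CACGTG in 7.15% and TATAAA in 13.6%. The motifs were searched on both strands with overlapping matches counted, were picked after the sequences were seen, and GGGCGG and CACGTG each contain a CG. TATAAA was found in none of these windows. Which start was used in these cells cannot be read from a TPM that sums over the whole gene.

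Kdm4c, an eraser of H3K36me3 and H3K9me3 (chromosome 4, 74242497 to 74405864, plus strand), had the largest difference between stages of the 10. It was at 0.899, 2.03 and 2.47 TPM in the control FGOs, and its lowest, median and highest TPM in the control embryos were 65.9, 96.2 and 145. Every embryo was far above every FGO. The log2 fold change was 5.21 ± 0.40 (SE, limma, adjusted p = 1.21e-06), on a scale where the added 1 understates the change of so low a gene, and the ratio of mean TPM was 57.0. In K36M samples it was at 1.81, 0.919 and 1.92 TPM in the FGOs and at 25.3, 94.0 and 190 TPM in the lowest, median and highest embryo, again with no overlap (4.90 ± 0.64, adjusted p = 8.79e-05). Its place among all genes of a library went from the middle in control FGOs to between the 85.8th and 92.9th percentile in the control embryos.

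Kdm4a, which also demethylates H3K36me3 and H3K9me3 (chromosome 4, 118136957 to 118180090, minus strand), was at 112, 102 and 117 TPM in the control FGOs and at 197, 298 and 367 TPM in the lowest, median and highest control embryo. The groups did not overlap, and the log2 fold change was 1.37 ± 0.23 (adjusted p = 6.75e-04, limma). The K36M FGOs were at 113, 115 and 102.5 TPM and the K36M oocyte-derived embryos at 159, 333 and 410 TPM (lowest, median and highest). All 8 embryos were above the 3 FGO pools, with a log2 fold change of 1.39 ± 0.30 (adjusted p = 0.00397), which was called only without the replicate number as a block in the fit (1.35, adjusted p = 0.112 with it).

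Kdm4b (chromosome 17, 56325970 to 56403774, plus strand), the third KDM4 eraser measured, was low and scattered at both stages. Control FGOs held it at 11.2, 9.85 and 8.53 TPM and control embryos at 1.23 to 16.03 TPM with a median of 12.6. Replicates 6 and 7 were at 1.5 and 1.23 TPM, and the other 5 embryos were at 11.7 to 16.03 TPM, above all 3 FGO pools. The log2 fold change was −0.30 ± 0.80, with a 95% interval from −2.04 to 1.44, while the ratio of mean TPM was 1.05, so the sign rested on those 2 embryos. In K36M samples the difference was −0.049 ± 0.76, and neither passed the test (limma, adjusted p = 0.797 and 0.968).

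Kdm2b, an H3K36me2 demethylase that recruits a Polycomb complex to CpG islands (chromosome 5, 122870664 to 122989270, minus strand), was the member that fell. It was at 433, 479 and 395.5 TPM in the control FGOs and at 88.6, 141 and 166 TPM in the lowest, median and highest control embryo. No embryo came near an FGO pool, and the log2 fold change was −1.71 ± 0.25 (adjusted p = 2.34e-04, limma). K36M FGOs held 453, 472 and 399 TPM and K36M oocyte-derived embryos 81.8, 146 and 217 TPM, again with no overlap (−1.59 ± 0.30, adjusted p = 0.00166, and −1.81 with adjusted p = 0.0613 with the replicate block). Of its exon bases, 6.34% also lie in Gm33118 on the other strand, and the strand setting of the counts is not given in the sources used here.

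Kdm2a, the paralogue that also removes H3K36me2 at CpG islands (chromosome 19, 4316144 to 4398721, minus strand), went the other way in controls. Control FGOs held it at 41.3, 42.8 and 47.1 TPM and control embryos at 86.8, 126 and 150 TPM (lowest, median and highest). The groups were clear of each other, with a log2 fold change of 1.45 ± 0.28 (adjusted p = 0.0018, limma). K36M FGOs were at 44.8, 64.7 and 61.6 TPM and K36M oocyte-derived embryos at 38.8, 133 and 149 TPM. The groups overlapped because of replicate 1 alone, at 38.8 TPM, and the other 7 embryos were at 92.2 TPM or above. With all 8 the difference was 0.94 ± 0.42 (adjusted p = 0.118), and without that embryo it was 1.15 (adjusted p = 0.011), a setting chosen after the data were seen. The readings of Kdm2a share 15% of its exon bases with the opposite-strand gene 9430078G10Rik.

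Setd2, the H3K36me3 methyltransferase (chromosome 9, 110532500 to 110618633, plus strand), was at 263, 231 and 243 TPM in the control FGOs and at 292, 693 and 758 TPM in the lowest, median and highest control embryo. All 7 embryos were above the FGOs, although replicate 1, at 292 TPM, was close to them and the other 6 were at 562 TPM or above. The log2 fold change was 1.27 ± 0.27 (adjusted p = 0.00352, limma), and with the replicate block it was 0.99 (adjusted p = 0.112). K36M FGOs held 239, 357 and 377 TPM and K36M oocyte-derived embryos 601, 795 and 978 TPM. Here too every embryo exceeded every FGO pool, by a log2 fold change of 1.28 ± 0.20 (adjusted p = 3.53e-04).

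None of the 4 H3K36me2 methyltransferases passed the test between stages in either genotype with all libraries weighted equally. Nsd1 (chromosome 13, 55209782 to 55318325, plus strand) was at 185, 184 and 174 TPM in the control FGOs and at 202, 208 and 309 TPM in the lowest, median and highest control embryo. The groups did not overlap, but most embryos were only just above the FGOs, and the log2 fold change of 0.34 ± 0.22 was not called (adjusted p = 0.263, limma). In K36M samples Nsd1 was at 208, 169 and 173 TPM in the FGOs and at 215, 273 and 387 TPM in the lowest, median and highest embryo. These groups were also apart, and the difference of 0.58 ± 0.24 was not called either (adjusted p = 0.0875). Among all genes tested, 32.7% in controls and 26.3% in K36M samples had groups that did not overlap, against 7 and 5 of the 10 enzymes.

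Ash1l (chromosome 3, 88950414 to 89079375, plus strand), a methyltransferase of the Trithorax group, was at 46.6, 34.4 and 47.7 TPM in the control FGOs and at 49.0, 67.5 and 86.0 TPM in the lowest, median and highest control embryo. The lowest embryo lay just above the highest FGO pool, and the log2 fold change of 0.61 ± 0.31 had an adjusted p of 0.165 (limma). Nsd2 (chromosome 5, 33820676 to 33897966, plus strand) was at 41.7 to 47.7 TPM in control FGOs and 43.9 to 85.8 TPM in control embryos (0.44 ± 0.31, adjusted p = 0.304). Nsd3 (chromosome 8, 25601601 to 25719667, plus strand) was at 15.2 to 16.2 TPM in control FGOs and 10.3 to 49.1 TPM in control embryos (0.66 ± 0.52, adjusted p = 0.366). Both pairs of groups overlapped. In K36M samples the differences were 0.45 ± 0.40 for Ash1l, −0.036 ± 0.42 for Nsd2 and 1.20 ± 0.51 for Nsd3, with adjusted p from limma of 0.457, 0.957 and 0.101. Nsd3 was at 14.9 TPM in K36M oocyte-derived embryo 4 and at 29.4 TPM or above in the other 7, and without that embryo its difference was 1.37 (adjusted p = 0.0442).

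**Figure D2:**
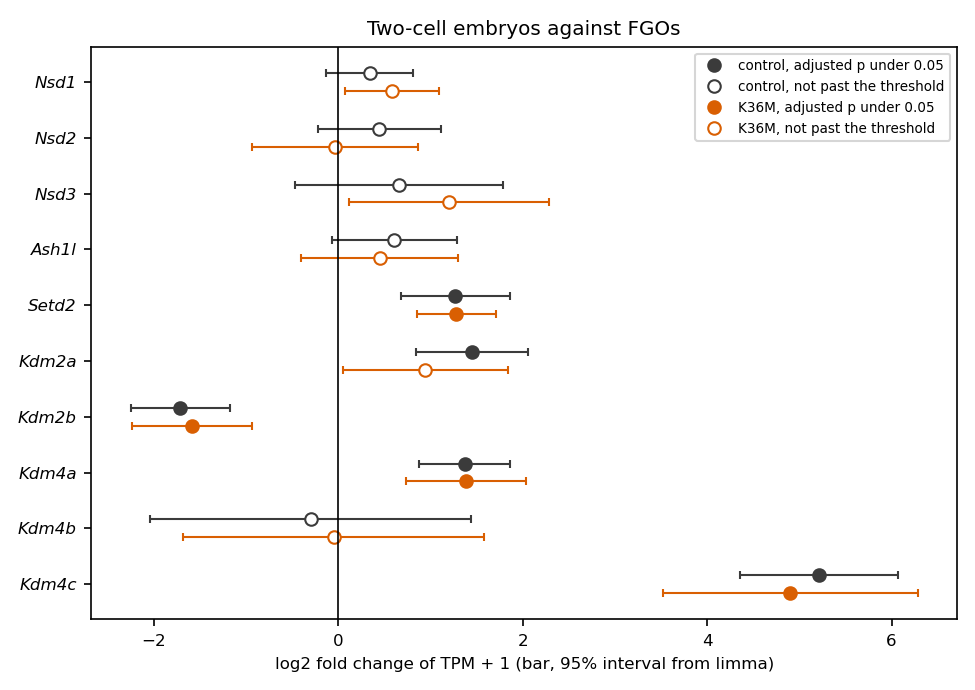
Log2 fold change of TPM + 1 between two-cell embryos and FGOs for the 10 enzymes, in controls (7 embryos against 3 FGO pools) and in K36M samples (8 against 3), with 95% intervals from limma and filled points for an adjusted p under 0.05. Kdm4c stood at 5.21 and 4.90, Kdm2b at −1.71 and −1.59, and the other members between −0.30 and 1.45.

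Kdm2b took most of the summed TPM of the demethylase genes in FGOs and a smaller part in embryos. TPM sums over a whole gene, so the transcript forms of Kdm2b and the other erasers are not told apart in it. These sums and shares are descriptions without a test. The summed TPM of the 5 erasers was 601 ± 32.5 in control FGOs and 661 ± 96.9 in control embryos. Kdm2b made up 72.4% ± 3.02 of that sum in control FGOs and 20.3% ± 2.71 in control embryos, and Kdm4a made up 18.4% ± 2.25 and 43.8% ± 4.33. The ratio of Kdm2b to Kdm2a was 10.03 ± 1.46 in control FGOs and 1.14 ± 0.36 in control embryos. Summed over each family, KDM2 went from 480 ± 39.7 to 258 ± 36.1 TPM and KDM4 from 122 ± 7.34 to 403 ± 75.8 TPM. In K36M samples Kdm2b made up 70.7% ± 2.44 of eraser TPM in FGOs and 22.8% ± 4.23 in embryos.

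Among the H3K36me2 writers the make-up stayed closer to that of the oocyte. Nsd1 made up 74.8% ± 1.64 of the summed NSD family TPM in control FGOs and 71.4% ± 5.65 in control embryos, and 74.7% ± 3.47 and 76.2% ± 5.12 in the K36M groups. The summed TPM of Nsd1, Nsd2, Nsd3 and Ash1l was 285 ± 3.94 in control FGOs and 390.3 ± 35.0 in control embryos, and their ranges did not overlap.

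**Figure D3:**
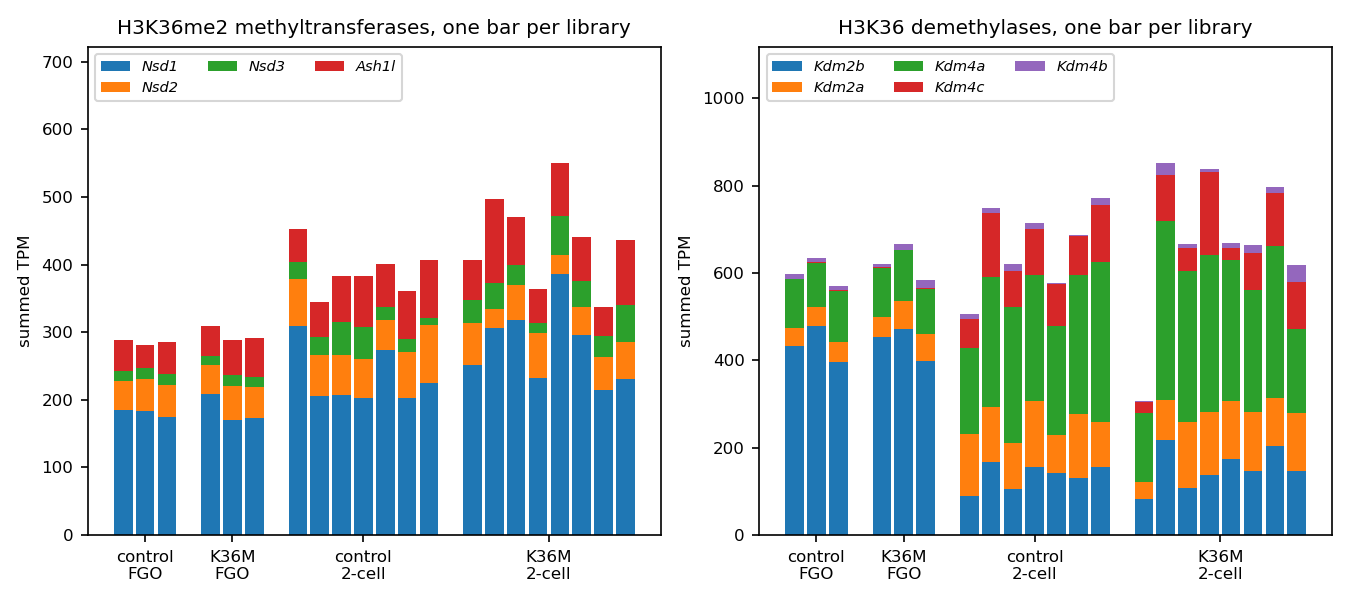
Summed TPM of the 4 H3K36me2 methyltransferases (left) and of the 5 demethylases (right), with 1 stacked bar per library. Kdm2b fills most of each demethylase bar in the FGOs (72.4% in controls) and less in the embryos (20.3% in controls), where Kdm4a and Kdm4c take more.

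The comparison of K36M with control FGOs asked whether oocytes that express the mutant histone held different levels of these enzymes. No member was called, where 0.00726% of the 13775 genes tested were called (1 gene, and limma gave 1446 genes a p under 0.05 before adjustment). The ranges of K36M and control pools overlapped for all 10 enzymes, and 15.6% of all genes had ranges that did not overlap. The median log2 fold change of the members was 0.028, beside 0.013 over all genes. Setd2 and Kdm2a had the smallest p of the 10. Setd2, at 263, 231 and 243 TPM in control pools and 239, 357 and 377 TPM in K36M pools, was above the controls in replicates 2 and 3 and inside them in replicate 1. Its log2 fold change was 0.37 ± 0.16, with a 95% interval from 0.015 to 0.73 and an adjusted p of 0.463 (limma, unadjusted p = 0.0428). Without K36M replicate 1 it was 0.58 with an adjusted p of 0.024, in a comparison that then called 300 genes.

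Kdm2a had the same shape, at 44.8 TPM in K36M replicate 1 and 64.7 and 61.6 TPM in the other K36M pools against 41.3 to 47.1 TPM in controls (0.36 ± 0.16, adjusted p = 0.470, limma). All 9 granulosa cell markers had a TPM above 0 in every FGO library, with 5 log2 fold changes above 0 and 4 below. Their summed TPM was 119 to 132 in the control pools and 129 to 196 in the K36M pools, and Nr5a2, which the embryos also held (174 ± 79.5 TPM in controls), was at 71.0 ± 5.37 TPM in control and 118 ± 39.1 TPM in K36M pools. The other 8 markers summed to 51.5 to 63.4 TPM in control and 46.4 to 56.2 TPM in K36M pools. The summed TPM of the 8 oocyte markers was 14928 to 15013 in control pools and 12917 to 14114 in K36M pools. The part of either list in the Setd2 and Kdm2a values was not tested. The other 8 enzymes had log2 fold changes between −0.11 (Kdm4c) and 0.33 (Kdm4b), with adjusted p of 0.611 or above. The intervals were narrow for Nsd1 (0.014, from −0.21 to 0.24), Kdm2b (0.018, from −0.20 to 0.24) and Kdm4a (0.0032, from −0.22 to 0.23). The signs of Nsd1, Nsd2 and Kdm4a turned under quantile normalization.

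The same comparison in two-cell embryos asked whether K36M oocyte-derived embryos differed from controls. No member and no other gene was called (0% of 17362 genes tested, and limma gave 1338 a p under 0.05 before adjustment). All 10 pairs of groups overlapped, and 0.115% of all genes had groups that did not. Over all genes the median change was −0.26 log2 units, against −0.013 under quantile normalization and −0.17 under median-of-ratios scaling, so changes are read against that shift. The members' median was 0.12 (0.16 and 0.22 under those scalings). Setd2 had the smallest p of the 10, at 292, 693 and 758 TPM in the lowest, median and highest control embryo and 601, 795 and 978 TPM in the K36M oocyte-derived embryos. In 5 of the 8 it was above every control embryo, and the other 3 were inside the control range. Its log2 fold change was 0.39 ± 0.20, with a 95% interval from −0.031 to 0.80 (adjusted p = 0.663), and without control embryo 1 it was 0.22. Beside it, 7 of the 8 oocyte markers had a log2 fold change below 0 in these embryos (median of the 8 −0.70), Nobox at −1.69 and Bmp15 at −1.04 with p under 0.05 before adjustment in limma, while Zp3 was at 1.01 with such a p and none of the 8 was called. Their part in the Setd2 value was not tested.

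The H3K36me2 writers pointed in both directions in the embryos. Nsd1 was at 202 to 309 TPM in controls and 215 to 387 TPM in K36M oocyte-derived embryos (0.26 ± 0.22), Nsd3 was at 10.3 to 49.1 and 14.9 to 57.4 TPM (0.46 ± 0.47), and Nsd2 was at 43.9 to 85.8 and 27.7 to 66.4 TPM (−0.44 ± 0.36). For Nsd2, 3 of the 8 K36M oocyte-derived embryos were below every control. Among the erasers, Kdm4c was at 65.9 to 145 TPM in controls and at 25.3 to 190 TPM in K36M oocyte-derived embryos, of which 3 were below and 1 above all controls (−0.42 ± 0.41). Kdm4b had the widest interval (0.58, from −0.89 to 2.04). Kdm2b, Kdm2a, Kdm4a and Ash1l had log2 fold changes between −0.15 and 0.14, and every adjusted p from limma over the 10 was 0.663 or above.

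**Figure D4:**
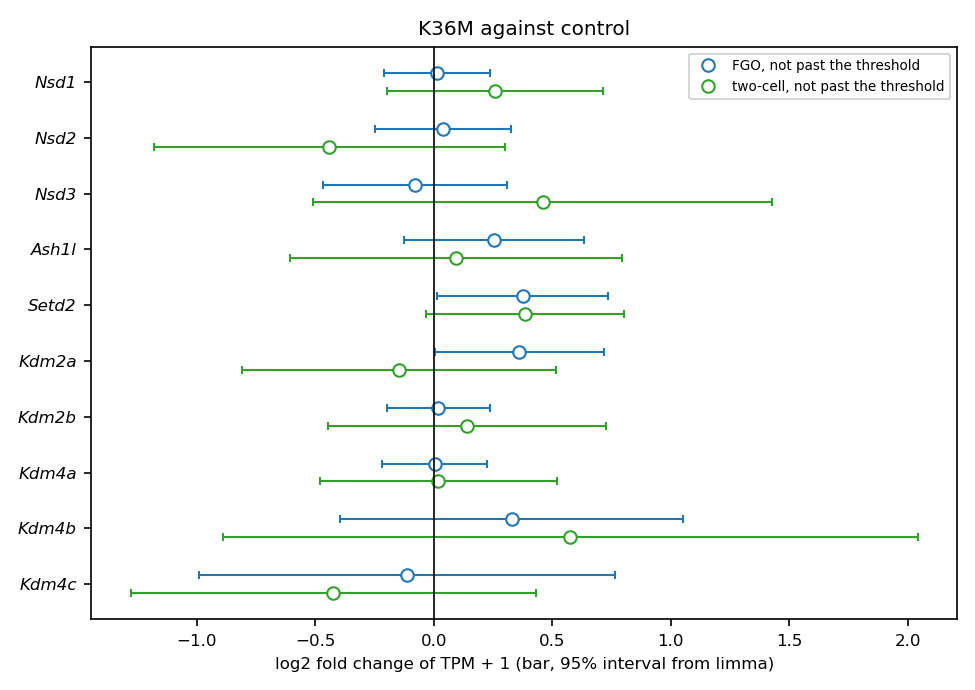
Log2 fold change of TPM + 1 between K36M and control for the 10 enzymes, in FGOs (3 against 3 pools) and in two-cell embryos (8 against 7), with 95% intervals from limma. All points are open because no adjusted p was under 0.05, and the intervals are wider in embryos for all but Kdm4c, as for Kdm4b (from −0.89 to 2.04 against −0.40 to 1.05).

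Whether the change between stages differed by genotype was tested as an interaction over the 21 libraries. No gene was called (0% of 17358, with 199 at an unadjusted p under 0.05 in limma). The interaction was 0.010 ± 0.34 log2 units for Setd2, 0.016 ± 0.38 for Kdm4a, 0.12 ± 0.40 for Kdm2b and −0.31 ± 0.77 for Kdm4c. It was 0.24 ± 0.32 for Nsd1, −0.48 ± 0.51 for Nsd2, 0.54 ± 0.72 for Nsd3, −0.16 ± 0.51 for Ash1l and 0.25 ± 1.10 for Kdm4b. For Kdm2a, called between stages in controls and not in K36M samples, it was −0.51 with a 95% interval from −1.57 to 0.55 (adjusted p = 1.00), so that contrast in calls is not a shown difference. These comparisons share libraries with the ones above, so the values of each are given side by side and their likeness is not evidence of its own.

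In controls, 9 of the 10 transcripts had a higher coefficient of variation over single embryos than over pools of oocytes, Kdm4c being the exception (45.0% over pools and 26.6% over embryos). It was 3.29% for Nsd1, 6.63% for Setd2 and 9.57% for Kdm2b over control pools, and over control embryos it was 18.2%, 26.1% and 21.2%. It was highest for Kdm4b (60.9%) and Nsd3 (52.2%) in control embryos and for Kdm4b (75.5%) and Kdm4c (61.1%) in K36M oocyte-derived embryos. A pool averages over its oocytes and an embryo library does not, so the spread of pools and of single embryos cannot be set side by side as biology. Control embryo 1 was the lowest of the 7 for Setd2 (292 TPM), Kdm2b (88.6 TPM), Kdm4a (197 TPM), Kdm4c (65.9 TPM) and Ash1l (49.0 TPM), and the highest for Nsd1 (309 TPM). K36M oocyte-derived embryo 1 was the lowest of its 8 for Setd2 (601 TPM), Kdm2a (38.8 TPM), Kdm2b (81.8 TPM), Kdm4a (159 TPM), Kdm4b (2.57 TPM) and Kdm4c (25.3 TPM).

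Over the 15 embryos, Setd2, Kdm4a and Kdm2b went together, with Pearson's r on log2(TPM + 1) of 0.65 for Setd2 and Kdm4a and 0.67 for Setd2 and Kdm2b, while Nsd1 went against Nsd2 (r = −0.65) and Kdm4c (r = −0.59). These are descriptions over embryos of both genotypes, whose values share the TPM scale, on which an abundant gene takes from the rest. The genes most like Setd2 across the 15 embryos, among 12155 with a mean TPM of at least 5, were Eif2b4 (r = 0.92), Zfp936 (0.91) and Rrp15 (0.89), and those most like Nsd1 were Agk (0.86), Rras2 (0.85) and Epb41 (0.85). They are the highest of 12155 coefficients over 15 embryos, and what chance alone would give was not computed. Agk was near the filter, at a mean of 5.13 TPM in control embryos.

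Setd2 was higher in embryos whose oocyte markers were lower. Against the median log2(TPM + 1) of the 8 oocyte markers, Setd2 had Spearman's rho of −0.81 (permutation test, two-sided, p = 6.00e-04, adjusted p = 0.012 over 20 relations) and Pearson's r of −0.62 (p = 0.0362, adjusted p = 0.162), so the call rested on ranks. Pearson's r was −0.61 without the 2 embryos farthest from the median, −0.59 within the 7 controls and −0.67 within the 8 K36M oocyte-derived embryos. Kdm2b was lower in embryos whose 8 two-cell markers had a higher median, with rho = −0.72 (permutation p = 0.00368, adjusted p = 0.0368) and r = −0.67 (p = 0.00654, adjusted p = 0.131). Its r was −0.70 without the 2 farthest embryos, −0.44 within controls and −0.75 within K36M oocyte-derived embryos. The other 18 of the 20 relations, of all 10 enzymes with both marker lists, did not pass by either coefficient after adjustment, and the relations were chosen after the data were seen.

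**Figure D5:**
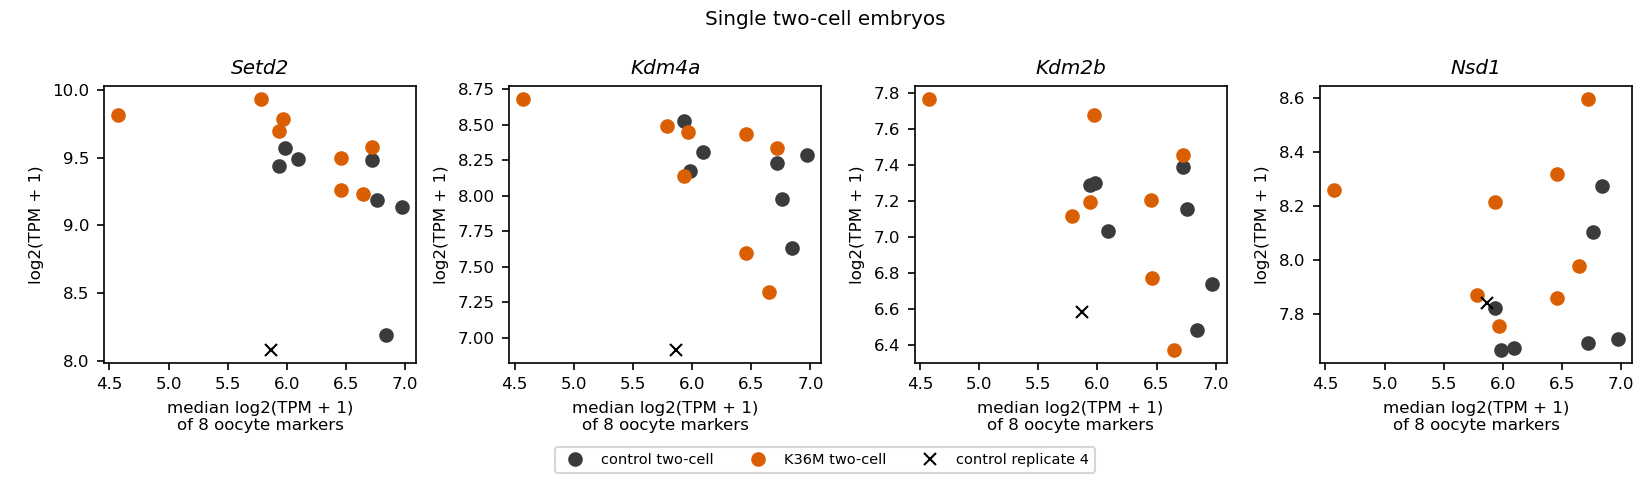
Log2(TPM + 1) of Setd2, Kdm4a, Kdm2b and Nsd1 in each two-cell embryo against the median log2(TPM + 1) of 8 oocyte markers, for 7 control and 8 K36M oocyte-derived embryos, with a cross for control replicate 4. Setd2 is lower toward the right (rho = −0.81), while Nsd1 shows no such slope (rho = 0.054).

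The wider H3K36 pathway was read from a list of 33 genes of other enzymes, partners of the writers, readers of the mark and the H3.3 genes. Between control FGOs and control embryos 32 were tested, and 10 were called higher and 2 lower, where 30.5% of all genes were called (15% higher and 15.5% lower). Brpf1, a reader subunit of MOZ/MORF acetyltransferase complexes, went from 15.5 ± 1.13 to 120 ± 40.4 TPM (log2 fold change 2.80 ± 0.36, adjusted p = 9.13e-05, limma). Brd1, a reader in the HBO1 complex, went from 260 ± 4.04 to 735 ± 149 TPM (1.47 ± 0.20). Prdm9, an H3K4 and H3K36 methyltransferase of meiosis, went from 1.16 ± 0.55 to 62.3 ± 36.4 TPM (4.67 ± 0.60), and the dioxygenase gene Riox1 from 0.571 ± 0.386 to 55.8 ± 40.8 TPM (4.89 ± 0.65). Riox1 was under a mean of 1 TPM in the FGOs and passed the filter on low values through the embryos, so its difference is a description. The 2 that were lower were Msh6, a mismatch repair protein with an H3K36me3-binding domain (262 ± 5.45 to 79.2 ± 8.82 TPM, −1.72 ± 0.23), and the methyltransferase Smyd2 (12.2 ± 4.66 to 1.11 ± 2.81 TPM, −3.17 ± 0.77).

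In K36M samples 32 of the 33 were tested, and 8 were called higher and 3 lower, where 25.3% of all genes were called (9.86% higher and 15.4% lower). The 3 lower were Msh6 (−2.45 ± 0.47), Smyd2 (−3.31 ± 0.64) and Setmar (−3.62 ± 1.03). The higher ones with the smallest p were Hdgf, a PWWP-domain protein (122 ± 9.71 to 620 ± 276 TPM, 2.22 ± 0.34), Prdm9 (4.28 ± 0.72), Brd1 (1.21 ± 0.22) and Riox1 (4.85 ± 0.89). Prdm9 (0.828 TPM) and Riox1 (0.530 TPM) were under a mean of 1 TPM in K36M FGOs, as Smyd2 was in K36M oocyte-derived embryos (0.491 TPM), so each of them passed the filter through the group where it was high. Between K36M and control, no gene of the list was called in FGOs (29 tested, 3 with p under 0.05 before adjustment in limma) or in embryos (31 tested, 1 with such a p), and none in the interaction (32 tested, 0 with such a p). The list had a median log2 fold change of 0.048 in FGOs and −0.13 in embryos, beside 0.013 and −0.26 over all genes.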

How the data were processed

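The RNA-seq part of the series was analysed, with 6 libraries from pools of FGOs and 16 from single two-cell embryos, each mapped to a group by its labels. Per the study's methods, the authors trimmed the reads (Trim Galore), aligned them to mm10 (HISAT2), discarded those from ribosomal RNA (BEDTools), obtained gene counts from featureCounts and used edgeR for their own tests. The deposited values are TPM and sum to 1e+06 in every library. The gene annotation, gene lengths and strand setting behind the TPM are not given in the sources used here. Read numbers per gene cannot be recovered from TPM, and no counting interval is given. The other data types of the series were not used here.

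Log2(TPM + 1) was modelled per gene by limma 3.58.1, run in R 4.3.3 with trended eBayes moderation, over every gene whose mean TPM reached 1 in the libraries used, with Benjamini-Hochberg adjustment over all of them and a threshold of 0.05. Fold changes are on the log2(TPM + 1) scale. The 2 genotype comparisons, the 2 stage comparisons and the interaction were fitted apart, each over its own libraries. On simulated data with 200 changed genes, changes of 1 log2 unit were called in 65% (FGO), 5% (two-cell), 1% (control stage) and 1% (K36M stage) of cases. Changes of 2 log2 units were called in 91%, 49%, 33% and 14%, over 13775, 17362, 16914 and 16677 genes. The stage tests on the data called 5159 and 4217 genes, where the simulation changed 200, so its stage shares do not carry over to them. Relations with markers used 100000 permutations. Pearson and Spearman coefficients, levels and sequence searches were computed with Python 3.11.15, numpy 2.4.6, pandas 2.3.3 and scipy 1.17.1, and plots with matplotlib 3.10.9. Positions and promoter sequences came from RefSeq, GRCm38.p6, and 4 of the 10 members had a promoter in that table.

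The members and gene lists were chosen with earlier results of these data known. The text covers every member in every comparison, by its value or within a range. It also names at most 4 pathway genes per direction by smallest p among those past the threshold, the 3 genes most correlated with Setd2 and with Nsd1, H3f3b and some cell type markers. The alternatives were a pseudocount of 0.1, no filter on low TPM, quantile and median-of-ratios scaling, the replicate number as a block, limma array weights, control two-cell replicate 4 added back, and each library left out in turn, of which leaving out two-cell libraries was chosen after the data were seen.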

Additional observations from a re-analysis of the deposited data

Results flagged for a closer look

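Setd2 in control two-cell replicate 1, at 292 TPM, stood apart from the other 6 control embryos, which were at 562 to 758 TPM. The gap to the nearest of them was more than Dixon's 95% critical value allows for 7 samples. Over the 20 groups of 7 or 8 embryos examined (10 enzymes in both genotypes), chance alone would give about 1 such value, and 1 was found. The same embryo was also the lowest control for Kdm2b, Kdm4a, Kdm4c and Ash1l, and the highest for Nsd1.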

How the results depend on the processing

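All 4 members called between stages in both genotypes, and Kdm2a in controls, stayed past the threshold and kept their direction under the other pseudocount, no filter, both scalings, array weights and with each library left out in turn, and Kdm4c, Setd2 in K36M samples and Kdm2a, Kdm2b and Kdm4a in controls did so with the replicate number as a block as well. With that block, Setd2 in controls had 0.99 (adjusted p = 0.112, limma), and in K36M samples 2 members were called in place of 4 and 2385 genes in place of 4217. The labels do not say whether same-numbered samples share more than a number. Their deviations correlated by −0.101 to 0.101, and such values over few pairs cannot decide it. The block also gave 0 genes in place of 1 in FGOs, Kdm4a at −0.025 in embryos and Kdm4b at 0.37 between control stages. Array weights called 9396 genes and 6 members between control stages (adding Nsd3 at 0.86, adjusted p = 0.037, limma), 8212 genes and 7 members between K36M stages (adding Nsd1, Nsd3 and Kdm2a) and 3 genes in the interaction, turned Kdm4b to 0.092 between control stages, and gave −0.068 for Setd2 and −0.32 for Kdm4b in the interaction. Quantile normalization turned Nsd1 (−0.0048), Nsd2 (−0.014) and Kdm4a (−0.028) in FGOs, Kdm4a (−0.041) in embryos, Nsd2 (0.060) and Kdm4b (0.14) between K36M stages, and Setd2 (−0.051) and Kdm4a (−0.010) in the interaction. Median-of-ratios scaling turned Kdm4a in FGOs (−0.0089). In FGOs 0 genes were called with a pseudocount of 0.1 and 0 with no filter, and with no filter the interaction called 13. The cause of these shifts was not tested.

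Leaving out 1 library at a time gave 0 to 1 members and 0 to 300 genes in FGOs (1 member, Setd2, and 300 genes without K36M replicate 1), 0 to 1 genes in embryos, 3015 to 5966 genes between control stages, 2342 to 4439 between K36M stages and 0 to 3 in the interaction. The lowest stage counts came without an FGO pool, of which 2 were then left. Signs turned for members near 0. In FGOs the ranges were −0.080 to 0.069 for Nsd1, −0.033 to 0.089 for Nsd2, −0.049 to 0.090 for Kdm2b, −0.052 to 0.054 for Kdm4a and −0.37 to 0.078 for Kdm4c. In embryos they were −0.022 to 0.20 for Ash1l, −0.22 to 0.064 for Kdm2a and −0.069 to 0.14 for Kdm4a. Between stages they were −0.46 to 0.033 for Kdm4b in controls, and −0.11 to 0.064 for Nsd2 and −0.38 to 0.26 for Kdm4b in K36M samples. In the interaction they were −0.19 to 0.13 for Setd2, −0.072 to 0.14 for Kdm4a and −0.085 to 0.56 for Kdm4b. TPM keeps no read counts per gene, so the limit that depth sets on low members such as Kdm4b was not measured. The paper lists fewer total reads for every embryo library than for any FGO library.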
